A study of Rattus norvegicus with 458 samples.

Results

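The adrenal gland of the rat was compared with 21 other tissues by small RNA sequencing. The comparison used 9 adrenal libraries of 215 libraries in the series, chosen by their tissue label, and set them against 186 libraries of the other tissues, so that 195 libraries entered the fit. All tissues came from naive Sprague Dawley rats that were 12 to 13 weeks old. The adrenal libraries came from 4 females (rats 7, 9, 10 and 11) and 5 males (rats 2 to 6), and the other tissues came from these rats and from rat 8. The labels do not say whether cortex and medulla of the gland were separated, so each library is taken as the whole piece of gland. Dorsal root ganglion libraries, which are pooled RNA, were left out.

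The values are counts per miRNA name, given below as CPM, which are counts scaled to the same total in every library. Adrenal totals lay between 3642364 and 13856831 counts with a median of 4983609, and those of the other tissues between 376401 and 17725805. The RNA integrity number (RIN) of the adrenal RNAs lay between 8.7 and 9.9, with a mean of 9.02, against 4.9 to 9.2 and a mean of 7.83 in the other tissues. The part of RNA quality in the differences below was not tested. In bulk tissue, a difference in the share of a cell type and a difference in RNA per cell cannot be told apart.

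The adrenal label was checked against the profiles. Each of the 9 libraries had a correlation of 0.964 to 0.984 with the other adrenal libraries, and of at most 0.840 with any other tissue (log2 of CPM plus 1, over 855 names). A 10th library labelled adrenal, from rat 8, was left out. It had a correlation of 0.690 with the adrenal libraries and 0.945 with the duodenum libraries, and it held miR-431 at 4.81 CPM and no count of miR-494-3p. Another 9 libraries with profiles of another organ were left out as well, 4 of them labelled duodenum, 3 hippocampus, 1 ovary and 1 uterus. The library labelled duodenum of rat 11 had a correlation of 0.966 with the adrenal libraries and 0.720 with its own label. Because libraries were left out on the basis of their profiles, values that separate the adrenal from the gut are not independent of that choice.

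The adrenal joins an outer cortex that makes steroid hormones and an inner medulla of neuroendocrine chromaffin cells that release catecholamines. A miRNA is a short RNA that guides silencing proteins to messenger RNAs, mostly through its seed, bases 2 to 8 from the 5′ end. Many miRNAs lie in clusters that are transcribed together. One such cluster lies in the imprinted Dlk1-Dio3 region, where miRNAs are made from the maternal chromosome and are known for high levels in brain, and another lies on the X chromosome with miR-322 and miR-503, known from dividing and differentiating cells.

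The sequences below are those of the miRNAs that carried the comparison, as RefSeq gives them for the rat build GRCr8, with the seed in capitals. The first group lies in the Dlk1-Dio3 region of chromosome 6, on the plus strand. They are miR-431 (134326468 to 134326488), miR-494-3p (134550163 to 134550185), miR-1193-3p (134550509 to 134550530), miR-673-5p (134306510 to 134306531), miR-540-3p (134321475 to 134321496), miR-377-3p (134576498 to 134576520) and miR-127-3p (134328510 to 134328531).
miR-431: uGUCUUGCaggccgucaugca
miR-494-3p: uGAAACAUacacgggaaaccucu
miR-1193-3p: uAGGUCACccguuuuacuaucc
miR-673-5p: cUCACAGCuccgguccuuggag
miR-540-3p: aGGUCAGAggucgauccugggc
miR-377-3p: uGAAUCACacaaaggcaacuuuu
miR-127-3p: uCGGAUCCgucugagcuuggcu

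The second group lies on the minus strand of the X chromosome, miR-351-5p at 137725157 to 137725181, miR-542-5p at 137722223 to 137722244 and miR-450a-5p at 137720985 to 137721006. The seed of miR-351-5p is also that of miR-125a-5p and miR-125b-5p.
miR-351-5p: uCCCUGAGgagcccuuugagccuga
miR-542-5p: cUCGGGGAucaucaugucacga
miR-450a-5p: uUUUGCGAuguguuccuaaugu

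The third group was the most counted in the adrenal, and these miRNAs lie within HOX gene clusters, miR-10a-5p on chromosome 10 (81779730 to 81779752) and miR-10b-5p on chromosome 3 (80035886 to 80035907). In RefSeq the miR-10b-5p entry starts 2 bases further in than that of miR-10a-5p, so the seeds printed differ.
miR-10a-5p: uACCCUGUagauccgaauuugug
miR-10b-5p: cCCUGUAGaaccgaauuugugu

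These 2 miRNAs made up 51.9% ± 5.03 (SD, n = 9) of all adrenal counts, between 45.8% and 57.9% per library. miR-10b-5p alone held 33.5% ± 3.95 and miR-10a-5p 18.4% ± 1.55. Their summed share was 52.1% in kidney medulla, 45.8% in whole kidney, 40.6% in kidney cortex and 0.0217% in hippocampus. The ratio of miR-10b-5p to miR-10a-5p lay between 1.60 and 2.09 in the 9 adrenal libraries. Next came miR-22-3p with 9.66% ± 1.96, miR-127-3p with 7.52% ± 1.83 and miR-26a-5p with 2.78% ± 0.234. The 5 names together took 71.9% ± 1.96 of the counts. A count was found in every adrenal library for 661 names, and 338 names had a mean of at least 10 CPM.

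In the comparison of the adrenal with the mean of the 21 other tissues, 1309 names passed the filter on low counts. Of these, 280 (21.4%) were higher in the adrenal and 246 (18.8%) were lower at an adjusted p of 0.05 (edgeR quasi-likelihood F test, Benjamini-Hochberg adjustment over the names). The mean over tissues was taken on the log scale, so a name that is high in a few tissues and near 0 in the others can be called higher in the adrenal although some tissue exceeds it. Calls were made against a log2 fold change of 0. The median log2 fold change over all names was -0.55, so a name near that median can be called lower, as miR-26a-5p was at -0.53. With TMM scaling the median was -0.12 and 71.2% of the calls were higher, against 53.2% here. The share was 63.1% with DESeq2 size factors, 65.4% with no scaling factors, 66.0% with no filter and 64.5% with the first flow cell alone. It was 48.5% with organs weighted equally and 49.8% with plain names alone, where lower calls outnumbered higher ones.

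**Figure D1:**
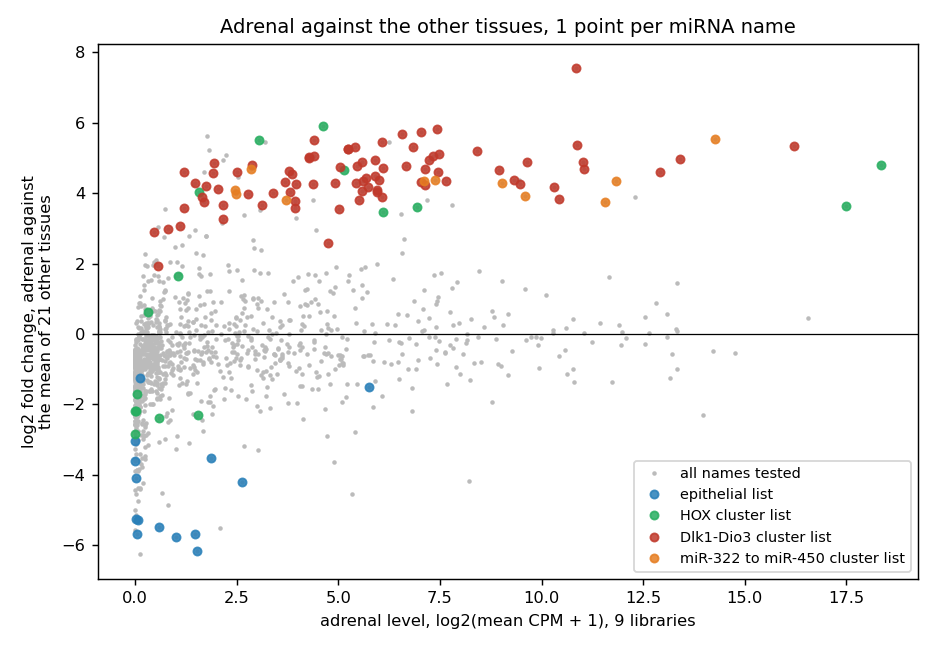
Each point is a miRNA name, with its adrenal level on the x axis as log2 of the mean CPM plus 1 over 9 libraries, and on the y axis its log2 fold change of the adrenal against the mean of 21 other tissues. The Dlk1-Dio3 names (red) and the miR-322 to miR-450 names (orange) all lie above 0, from 1.93 to 7.55, miR-10b-5p is the HOX point furthest to the right, and the epithelial names (blue) lie below 0.

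The largest rise was that of miR-431. It stood at 902 CPM in the lowest adrenal library, 1959 in the median and 2663 in the highest. The next tissues were the cerebrum with a mean of 188 CPM ± 36.8 (SD, n = 10) and the hippocampus with 167 CPM ± 29.7 (n = 7), and the highest single library outside the adrenal was a cerebrum library at 246 CPM. All 9 adrenal libraries therefore lay above all 186 others. The log2 fold change against the mean of the other tissues was 7.55 (SE 0.14, adjusted p = 1.76e-108). Against single tissues it ranged from 4.15 (SE 0.32) over the biceps femoris to 11.49. Whole blood, kidney cortex and kidney medulla were the lowest tissues, at means of 0.0946, 0.468 and 0.660 CPM.

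miR-494-3p was far less abundant, at 28.0 CPM in the lowest adrenal library, 41.2 in the median and 58.4 in the highest. The hippocampus followed with 6.10 CPM ± 1.60 and the biceps femoris with 5.59 CPM ± 1.90. No compared library of another tissue exceeded 8.84 CPM, so the groups did not overlap. The log2 fold change was 5.31 (SE 0.18, adjusted p = 9.36e-69). The other arm, miR-494-5p, was counted at 2.12 to 3.89 CPM and had a log2 fold change of 4.85 (SE 0.28).

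miR-351-5p, an X-linked miRNA, stood at 12646 CPM in the lowest adrenal library, 20534 in the median and 28132 in the highest. The ovary was the nearest tissue at 8929 CPM ± 2063 (n = 4) with a highest library of 10815, and the testis followed at 2250 CPM. Here too every adrenal library in the comparison lay above every other library in it. The log2 fold change was 5.55 (SE 0.09, adjusted p = 2.37e-119) against the mean of the tissues and 1.38 (SE 0.27, adjusted p = 4.65e-06) against the ovary. miR-125a-5p and miR-125b-5p, which carry the same seed, moved less or the other way. Their log2 fold changes were 0.88 and -0.97, and their adrenal means were 7238 and 981 CPM.

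**Figure D2:**
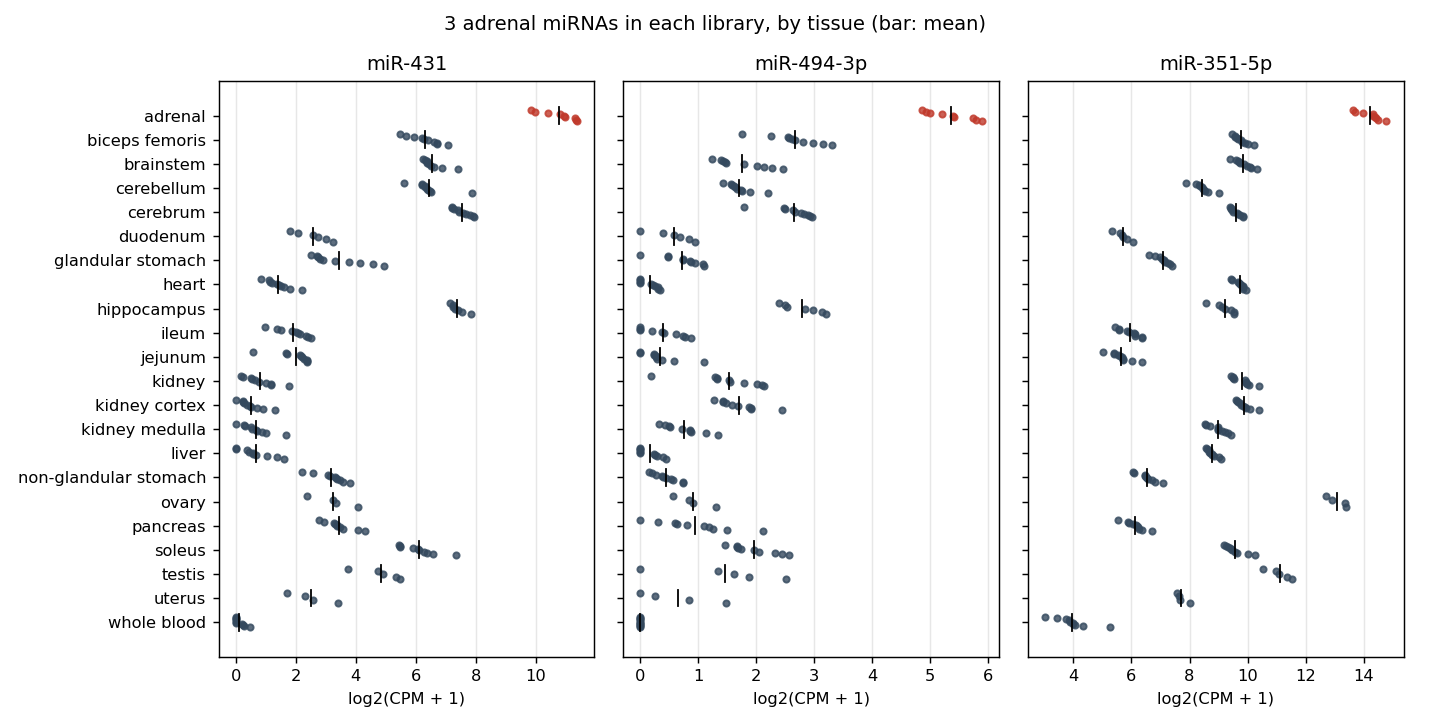
The 3 adrenal miRNAs in each library, with the tissue on the y axis and log2 of CPM plus 1 on the x axis, points for libraries (adrenal red, n = 9) and black bars for tissue means. For miR-431 and miR-494-3p the adrenal points stand apart from brain and muscle, and for miR-351-5p the ovary comes nearest, at most 10815 CPM against at least 12646 in the adrenal.

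A stricter reading asks which names exceeded each of the 21 tissues separately. In the fit this held for 28 names, 2.14% of those tested, and 0 names were lower than every tissue. Of the 28, 22 belonged to the Dlk1-Dio3 list and 4 to the miR-322 to miR-450 list. The 2 remaining ones were predicted or precursor entries of chromosome 6. The number depended on the scaling, since the upper quartile factors had a median of 1.30 in the adrenal, 2.10 to 3.78 in the brain regions and 3.94 in the testis. With no scaling factors, an alternative chosen after seeing the data, 15 names exceeded every tissue. miR-136-5p, miR-154-5p, miR-379-3p, miR-379-5p, miR-382-3p, miR-409a-3p and miR-411-3p exceeded every tissue in the fit, although a brain region had a higher mean CPM. For miR-409a-3p the means were 640 CPM in the adrenal and 1064 in the hippocampus. The rest of the 28 had their highest mean CPM in the adrenal. A count that needs no model is that of names whose 9 adrenal libraries all exceeded the 186 others in CPM. It was 12, or 0.917% of the names tested. Besides the 3 miRNAs above these were miR-1193-3p, miR-673-5p, the composite name of miR-299a-3p and miR-299b-3p, miR-299a-5p, miR-494-5p, miR-542-5p, miR-503-3p, miR-219a-1-3p and a composite name with the mir-679 precursor. Of these, miR-299a-5p, miR-503-3p and miR-219a-1-3p are not among the miRNAs named by rule and were chosen after their values were seen. The count of 12 rests on which libraries were left out by their profiles. The left-out library labelled duodenum of rat 11 held miR-431 at 1250 CPM, miR-351-5p at 13500 and miR-494-3p at 35.8, within the adrenal ranges. The left-out library labelled adrenal of rat 8 held miR-431 at 4.81 CPM, below its adrenal range.

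The Dlk1-Dio3 list holds 99 names, of which 82 passed the filter, and 5 had no count in the adrenal. All 82 tested names were called higher in the adrenal, against 21.4% of all names, and their median log2 fold change was 4.47. A name counted mainly in the adrenal could pass the filter through the adrenal alone, so the count describes the tested names only. The summed level of the list was 71222 CPM in the lowest adrenal library, 114582 in the median and 142789 in the highest. It was higher in the hippocampus, at 233306 CPM, and in the brainstem, at 213323 CPM. Over the list as a whole the adrenal thus ranked below brain regions in CPM, and 16 of the 82 names had their highest tissue mean in the adrenal.

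Members of the list differed in how the adrenal stood to the brain. miR-1193-3p had 50.7 CPM in the lowest adrenal library, 86.0 in the median and 193 in the highest. No compared library of another tissue was above 27.2 CPM, and the log2 fold change of miR-1193-3p was 5.69 (SE 0.15). miR-673-5p ranged from 14.1 to 27.5 CPM against 9.63 in the hippocampus, with a log2 fold change of 5.52 (SE 0.21). The composite name of miR-299a-3p and miR-299b-3p ranged from 39.2 to 99.4 CPM against 16.8, with a log2 fold change of 5.47 (SE 0.18). With no scaling factors, too, each of these 3 exceeded all 21 tissues. miR-540-3p (72.1 to 235 CPM, hippocampus 94.1) and miR-377-3p (19.0 to 57.4 CPM, hippocampus 25.7) overlapped with brain libraries. They exceeded every tissue in the fit, but only 20 of 21 tissues with no scaling factors.

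Another set of members had higher means in the brain in CPM. miR-127-3p, the most counted miRNA of the region, was at 49713 CPM in the lowest adrenal library, 78690 in the median and 96784 in the highest, and its mean was 169188 CPM in the hippocampus and 159639 in the brainstem. The fitted difference to the hippocampus was 0.24 (log2, SE 0.32, adjusted p = 0.583), which has the opposite sign to the difference in CPM because of the scaling. miR-433-3p had a mean of 170 CPM in the adrenal and 360 in the brainstem, miR-341 of 1868 against 3179 in the hippocampus, and miR-667-3p of 113 against 284 in the brainstem. For these 3 as well the fitted difference had the opposite sign to that in CPM, at 0.49 against the brainstem for miR-433-3p (adjusted p = 0.149), 0.63 against the hippocampus for miR-341 (adjusted p = 0.258) and 0.24 against the brainstem for miR-667-3p (adjusted p = 0.525). Their log2 fold changes against the mean of all tissues were 5.83, 5.36 and 5.31, each with an adjusted p of at most 2.38e-68.

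The position of the names along chromosome 6 showed the rise over the whole region. A first group of hairpins runs from Mir770 to Mir370 over 56.5 kb (134298084 to 134354569), and all 22 tested names there were higher, with a median log2 fold change of 4.76. A second group runs from Mir379 to Mir410 over 36.4 kb (134543445 to 134579838), and all 56 tested names were higher, with a median of 4.31. Of the names above every tissue in the fit, 4 lay in the first group and 16 in the second. Neighbouring hairpins could differ, as miR-431 had a log2 fold change of 7.55 and miR-665, on the hairpin before it, of 3.96. The lowest value of the region was that of miR-323-5p, 1.93, at a mean of 0.484 CPM. In all, 83 of 91 tested names placed on chromosome 6 were higher, and 29 of 84 on the X chromosome. Over all 1309 tested names, placed or not, 21.4% were higher. Counts elsewhere included 22 of 46 on chromosome 1, 14 of 42 on chromosome 10, 3 of 21 on chromosome 8 and 1 of 15 on chromosome 11. The share on the X chromosome thus lay within the range of other chromosomes. Of the tested names, 498 of 1309 could be matched to 1 RefSeq mature miRNA and so be placed.

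**Figure D3:**
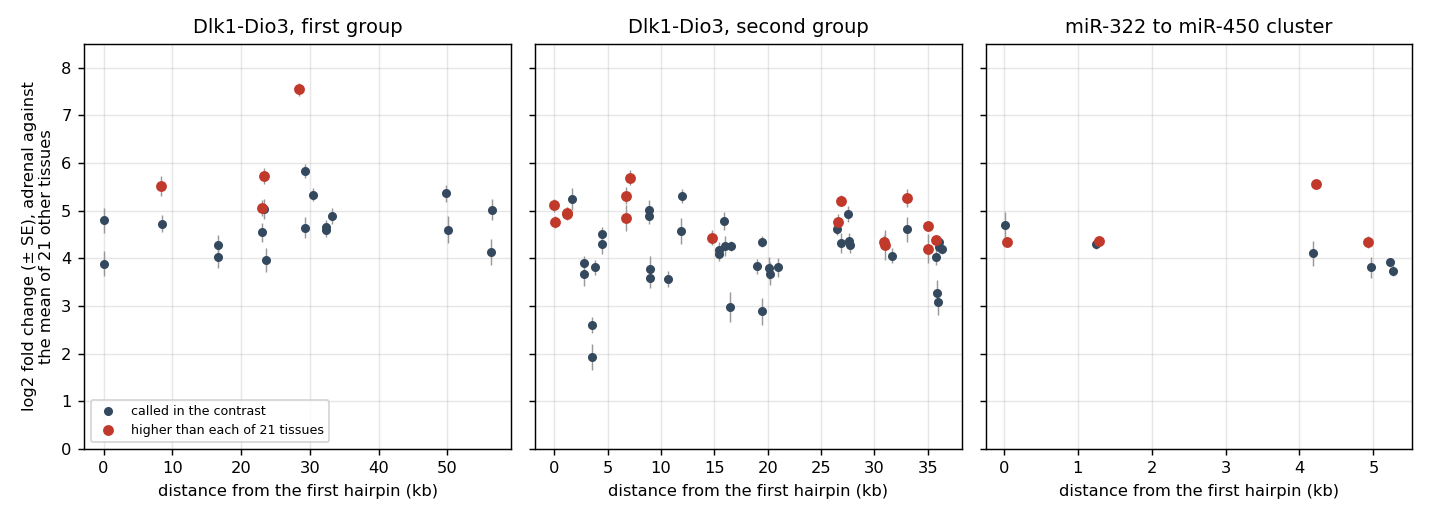
Log2 fold change (± SE) of the adrenal against the mean of 21 other tissues, on the y axis, by distance in kb from the first hairpin of each group, on the x axis, with a point per miRNA name. Red points exceeded each of the 21 tissues in the fit, 4 in the first Dlk1-Dio3 group, 16 in the second and 4 in the miR-322 to miR-450 cluster. Several red points of the second group had a higher mean CPM in a brain region than in the adrenal. The point at 7.55 is miR-431.

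The X-linked cluster with miR-322, miR-503, miR-351, miR-542 and miR-450a moved as a block too. Of 12 names on the list 11 were tested, and all 11 were higher, against 21.4% of all names, with a median log2 fold change of 4.30. Here too a name could pass the filter through the adrenal alone. Their summed level was 19542 CPM in the lowest adrenal library, 28710 in the median and 37956 in the highest, against means of 19617 in the ovary and 4613 in the testis, so the ovary's mean lay just inside the adrenal range. miR-542-5p ranged from 128 to 204 CPM in the adrenal and was 86.4 in the ovary, with a log2 fold change of 4.36 (SE 0.10). miR-450a-5p, with an adrenal mean of 3643 CPM, had a log2 fold change of 4.34, and miR-450a-3p, with 6.19 CPM, of 4.70. The 10 names that could be placed lie within 5.31 kb (137720933 to 137726241). The names of the cluster were not alike in size. miR-351-5p had 5.55 while the other arm of its hairpin, miR-351-3p, had 4.10, and the arms of the next hairpin, miR-503-3p and miR-503-5p, had 4.34 and 3.81.

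miRNAs of the HOX clusters, which mark position along the body axis, divided within the list. Of 16 tested names 10 were higher, 2 lower and 4 not past the threshold, against 21.4% higher and 18.8% lower over all names. The DESeq2 test called 9 higher and 4 lower. miR-10b-5p stood at 284263 to 391601 CPM in the adrenal libraries, with the uterus next at a mean of 209827, and its log2 fold change was 4.81 (SE 0.12). On the fitted scale the difference to the kidney was 0.04 (log2, SE 0.25, adjusted p = 0.966). The fitted difference to the uterus was -0.83 (log2, SE 0.32, adjusted p = 0.0318), which has the opposite sign to the difference in CPM because of the scaling. miR-10a-5p had a log2 fold change of 3.64 (SE 0.13) and was higher in kidney medulla, at 320922 CPM against 184069 in the adrenal. miR-196c-5p rose by 5.90 (log2, SE 0.20). Its adrenal libraries lay between 16.5 and 37.6 CPM, below the ileum at a mean of 80.3. The related miR-196a-5p and miR-196b-5p were lower in the adrenal, with log2 fold changes of -2.39 and -2.30.

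Among miRNAs known from neurons and neuroendocrine cells, 17 of 32 tested names were higher, 4 lower and 11 not past the threshold, against 21.4% higher and 18.8% lower over all names, and the median log2 fold change was 0.60. The higher ones included miR-375-3p, known from endocrine cells of pancreas and pituitary, at 4031 to 6210 CPM in the adrenal. Its log2 fold change was 3.88 (SE 0.17), and the pancreas at 37202 CPM and the duodenum at 7221 CPM were higher than the adrenal. miR-7a-2-3p ranged from 3.93 to 7.13 CPM and had a log2 fold change of 3.38 (SE 0.22), with the hippocampus at 74.6. miR-182 and miR-183-5p of the sensory cluster rose by 1.62 and 1.79. The lower members were miR-9a-3p, miR-9a-5p and miR-124-3p, known from neurons, and miR-7a-1-3p. miR-9a-3p was at 0.151 to 0.722 CPM in the adrenal against 1128 in the hippocampus, and miR-124-3p had an adrenal mean of 2.17 CPM and a log2 fold change of -2.75.

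Names studied in steroid-making cells showed no common direction. Of 23 tested, 7 were higher, 9 lower and 7 not past the threshold, against 21.4% higher and 18.8% lower over all names, and the median log2 fold change was -0.17. The higher share lies nearer to that over all names than the lower share, which is well above it. With TMM scaling 11 were higher, and with the first flow cell alone 4 were lower. miR-202-5p, a gonadal miRNA, was counted in all 9 adrenal libraries at 4.76 to 11.2 CPM. Testis and ovary held far more, at 4369 and 662 CPM, and the next tissue was the pancreas at 0.111 CPM, so that its log2 fold change of 5.46 (SE 0.21) rests on 19 tissues near 0. miR-21-5p, the most counted of the list in the adrenal at a mean of 8694 CPM, rose by 0.58. miR-132-3p and miR-212-3p, cotranscribed and known to respond to cAMP, had log2 fold changes of -1.49 and -1.08. miR-383-5p was at 0.604 CPM or less in each adrenal library.

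The study itself lists 9 names for the adrenal, chosen on libraries that include these, so they are no independent evidence of a direction. The 5 tested names, miR-351-5p, miR-494-3p, miR-494-5p, miR-1193-3p and miR-672-5p, were all higher. miR-672-5p, at 67.5 to 141 CPM, was exceeded by the pancreas at 248 CPM, and its log2 fold change was 3.42 (SE 0.13). The other 4, miR-126b, miR-3544, a mir-134 precursor entry and the composite of miR-299a-5p and miR-299b-5p, did not pass the filter, with adrenal means of 1.65, 0.807, 0.856 and 1.13 CPM. The study lists these 4 and miR-494-5p as specific to the adrenal.

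The strongest falls were in epithelial miRNAs. The miR-200 family, which holds cells in an epithelial state, was close to the limit of detection. miR-200b-3p was at 0.216 CPM in the lowest adrenal library, 2.01 in the median and 3.02 in the highest, against a mean of 4345 in the ileum. miR-200a-3p did not exceed 1.65 CPM, miR-429 2.75 CPM and miR-200c-3p 0.805 CPM. Their log2 fold changes were -6.15 (SE 0.40), -5.75 (SE 0.40), -5.67 (SE 0.38) and -5.47 (SE 0.31). Muscle and whole blood were as low as the adrenal, with miR-200b-3p at means of 1.80 CPM in soleus, 1.92 in biceps femoris and 0.896 in whole blood. Of the epithelial list 9 of 14 tested names were lower, against 18.8% of all names, and 5 did not pass. These calls rest on leaving out the adrenal library of rat 8, in which the list summed to 13286 CPM against 47.1 to 99.2 in the 9 others. With that library kept, 6 names were higher and 1 lower, and the median went from -4.73 to 0.60.

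miR-31a-5p, known from epithelial and mesenchymal cells, was at 2.04 to 5.82 CPM in the adrenal, and only the soleus had a lower mean. The liver held 1882 CPM and the ovary 1156, and the log2 fold change was -5.52 (SE 0.37). miR-802-5p, a liver and pancreas miRNA, had a count in rats 7 and 9 alone among the adrenal libraries, at most 0.358 CPM, against 1064 in liver. The names of kidney and gut epithelium, of interest because the gland lies on the kidney, were 4 lower and 7 not past the threshold of 11 tested, against 18.8% lower over all names. The DESeq2 test called 8 lower. miR-192-5p was at 213 to 394 CPM in the adrenal against a mean of 57294 in whole kidney, and the list summed to 462 to 775 CPM in the adrenal against 357770 in the library of rat 8. With that library kept, 6 names of the list were higher and 1 lower.

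The other marker lists gave the following. Of 16 striated muscle names 8 were lower, against 18.8% of all names, and 8 did not pass. With the first flow cell alone 2 of 12 were lower. The adrenal sums were 33.3 to 86.6 CPM, and no tissue had a lower mean sum. miR-133a-3p was at 14.6 to 62.6 CPM in the adrenal against 289152 in biceps femoris, and miR-133a-5p had 1 count in a single adrenal library. All 4 smooth muscle names were lower, against 18.8% of all names. The most abundant, miR-143-3p, was at 12670 to 18710 CPM against 840799 in non-glandular stomach, and the list summed to 12818 to 18923 CPM, against 249788 in the library of rat 8. The 2 tested endothelial names, miR-126a-5p and miR-126a-3p, were both higher, against 21.4% of all names. Their log2 fold changes were 0.50 (SE 0.16) and 0.43 (SE 0.16), at means of 5934 and 1751 CPM, and the heart held 18018 and 6156. Neither passed when organs were weighted equally, and 1 of them did without rat 4.

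Of 6 red cell names 2 were higher, 2 lower and 2 not past the threshold, against 21.4% higher and 18.8% lower over all names. The higher ones numbered 1 without rat 2, 4, 5, 6, 9 or 11, and 0 with organs weighted equally or with all libraries under their labels. The list had sums of 108 to 295 CPM against a mean of 13329 in whole blood. miR-451-5p, the main erythroid miRNA, was at 76.9 to 208 CPM and did not pass (log2 fold change 0.08, SE 0.17, adjusted p = 0.903), and miR-486-5p was lower by -2.42 (SE 0.71). Of 7 leukocyte names 5 were lower, against 18.8% of all names, and none higher. With TMM scaling 3 were lower and with organs weighted equally all 7. miR-150-5p, of lymphocytes, was at 268 to 444 CPM with a log2 fold change of -0.82 (SE 0.17), and miR-142-3p, of all leukocytes, at 16.5 to 28.2 CPM with -1.22 (SE 0.21). No mesenchymal name of 3 passed (2 were higher with TMM scaling), with miR-199a-3p at a mean of 779 CPM and a log2 fold change of -0.17 (SE 0.16) that turned positive under other scalings. The hepatocyte names miR-122-5p and miR-122-3p summed to at most 4.94 CPM, and the pancreatic acinar names to at most 1.19 CPM. Of 6 tested acinar names 2 were lower, against 18.8% of all names, and 4 did not pass. With the library of rat 8 kept, all 6 acinar names were higher. miR-217-5p reached 0.569 CPM in the adrenal against 6246 in pancreas.

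Taken tissue by tissue, the comparison with the ovary had the fewest names called. Of 1309 names 186 were higher and 239 lower than in ovary, 425 in all. The uterus followed with 448, and whole blood had the most, 828. These counts depend on the number of libraries, which was 4 for ovary and uterus and up to 10 elsewhere, so they are no measure of distance alone.

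Sex was the one condition that varied among adrenal libraries, with 4 females against 5 males. Of 1410 names tested, 7 (0.496%) were higher in males and 0 (0.0%) in females at an adjusted p of 0.05 in edgeR. At an unadjusted p under 0.05 there were 49 and 35, and DESeq2 called 13 and 4. Without rat 7, 10 or 11 there were 4 male-higher names, and without rat 7 or 9 there was 1 female-higher name. With no filter there were 26 male-higher and 9 female-higher names, and with the adrenal libraries fitted alone, over 539 names, 9 and 37. Of the 7 names 6 could be placed, and all 6 lie on the X chromosome. Of the placed names in the tissue comparison, 84 of 498 lie there. Most of the 6 come from neighbouring hairpins, so they are not separate places on the chromosome. The seventh is a predicted name that rests on 1 library, with 51 counts in rat 3, 1 count in rat 4 and none in the other males or in the females.

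The clearest was miR-504 (X, 142354466 to 142354487, minus strand), printed here with miR-3585-5p (X, 151706773 to 151706794, minus strand), since these 2 had the smallest p. They share no seed.
miR-504: aGACCCUGgucugcacucuguc
miR-3585-5p: uUCACAAGaaggugucuuucau

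miR-504 was at 9.86, 11.3, 14.5 and 15.1 CPM in the female adrenals and at 69.5, 70.5, 73.4, 80.6 and 99.7 CPM in the male ones. The groups did not overlap, with means of 12.7 ± 2.50 (SD, n = 4) and 78.7 ± 12.5 (n = 5). The log2 difference of females minus males was -2.77 (SE 0.38, adjusted p = 2.18e-08). In the other 18 tissues with both sexes the common difference was -0.20 (SE 0.10, adjusted p = 0.363), and the test of the difference between adrenal and these tissues gave -2.61 (SE 0.44, adjusted p = 1.86e-05). Single tissues were not alike. miR-504 was lower in females also in kidney cortex (27.5 against 77.9 CPM, log2 difference -1.25, adjusted p = 0.0344), whole kidney (25.0 against 55.0, -1.35, adjusted p = 0.0156) and kidney medulla (8.01 against 33.7, -1.68, adjusted p = 0.000673). In hippocampus, the tissue with the most miR-504, the means were 384 and 376 CPM and the log2 difference 0.07 (SE 0.39). Whole blood also passed the test (adjusted p = 0.0165), with means of 0 and 0.262 CPM.

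The other 5 placed names come from 3 hairpins, Mir3585, Mir201 and Mir547, within the X-linked group from Mir3585 to Mir509 (151706708 to 151732885). miR-3585-5p was at 1.79 to 4.32 CPM in females and at 4.76 to 30.4 CPM in males, without overlap, and the log2 difference was -2.68 (SE 0.46, adjusted p = 1.73e-05). miR-201-5p was at 0.402 to 1.19 CPM in females and 0.906 to 12.1 CPM in males, so its groups overlapped, with a log2 difference of -2.93 (SE 0.51, adjusted p = 2.01e-05). miR-3585-3p, miR-547-5p and miR-547-3p differed by -3.26, -3.41 and -3.30, at levels of at most 6.40, 1.56 and 1.14 CPM. The male libraries were spread, with miR-3585-5p at 22.5 and 30.4 CPM in rats 4 and 5 and at 4.76 CPM in rat 6. In the other tissues together none of the 5 differed between sexes past the threshold, with log2 differences from -0.01 to 0.23. In whole blood taken alone 3 of them passed in the same direction, miR-3585-5p (adjusted p = 1.19e-06), miR-201-5p (adjusted p = 0.000922) and miR-3585-3p (adjusted p = 0.038). Their means there were 0 CPM in females and 1.12, 0.496 and 0.218 CPM in males.

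miR-3585-5p was highest in testis, with a mean of 16565 CPM, and the ovary came next at 621 CPM. It was also counted in heart at 205 CPM and in kidney medulla at 187 CPM. Other abundant testis miRNAs were read in the same adrenal libraries as well. The names were chosen after the sex difference was seen. miR-743b-3p, at a mean of 10625 CPM in testis, was at 0 to 0.454 CPM in male and 0 to 3.32 CPM in female adrenals. miR-449a-5p, at 14909 CPM in testis, was at 0.401 to 1.10 CPM in males and 0.402 to 0.722 CPM in females. The sum of 6 such names was 0.401 to 1.51 CPM in males and 0.805 to 15.5 CPM in females, against 45111 CPM in testis. The ranges of the sexes overlapped, and the highest sum was in a female. The source of the male-higher miRNAs was not tested.

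**Figure D4:**
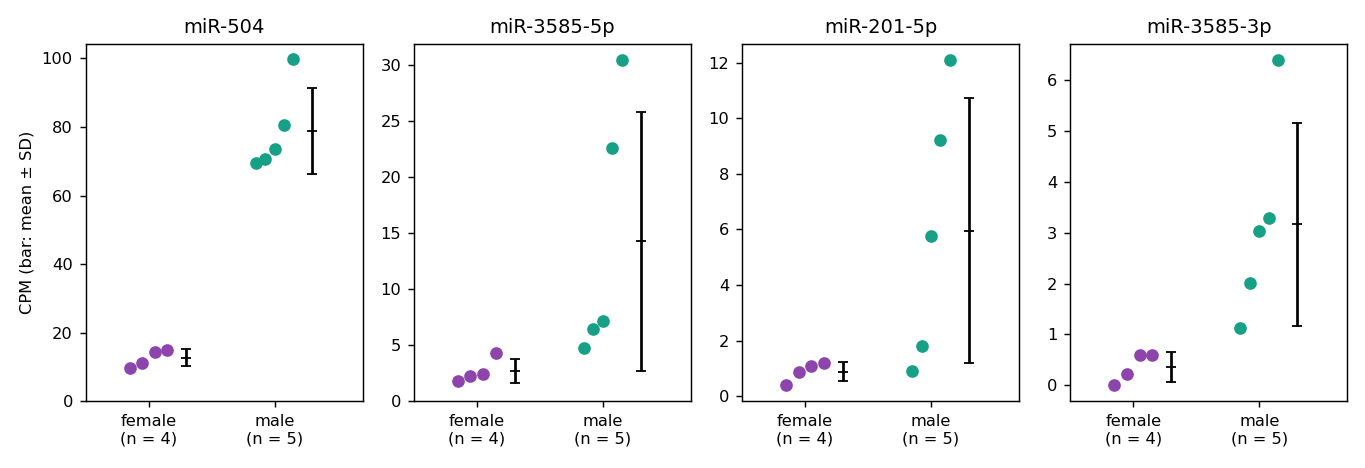
CPM (y axis) of the 4 male-higher miRNAs with the smallest p in female (purple, n = 4) and male (green, n = 5) adrenal libraries, a point per library in order of value, with bars for mean ± SD. For miR-504 females reach 15.1 CPM and males start at 69.5, while for miR-201-5p the lowest male, at 0.906 CPM, lies within the female range.

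The isomiR table gives each read sequence, so the forms of these miRNAs in the adrenal can be shown. In the reads below, written as DNA, capitals mark bases 2 to 8 of the read. The first is the most counted read of miR-431, the second that of miR-351-5p, the third that of miR-494-3p and the fourth that of miR-10b-5p.
miR-431 read: tGTCTTGCaggccgtcatgc
miR-351-5p read: tCCCTGAGgagccctttgagcct
miR-494-3p read: tGAAACATacacgggaaacctct
miR-10b-5p read: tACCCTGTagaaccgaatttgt

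For miR-431 this read, 1 base shorter at the 3′ end than the RefSeq sequence, made up 72.9% of adrenal counts, and the RefSeq sequence 14.5% ± 2.14 (SD, n = 9). In cerebrum the RefSeq sequence took a median of 37.1%, with libraries from 17.8% to 40.7%, against 10.8% to 17.4% in the adrenal. For miR-351-5p the read shown is 2 bases shorter and made up 41.4%, and the RefSeq sequence 2.54% ± 0.233, against 2.84% in ovary. The most counted miR-494-3p read is the RefSeq sequence itself, with 62.6% ± 2.28. For miR-10b-5p the read shown made up 73.0% of the adrenal counts. It starts 2 bases before the RefSeq entry, so that its bases 2 to 8 are those of miR-10a-5p, and the RefSeq sequence itself was 0.00153% of the counts. The same read was the most counted in ovary (70.7%) and cerebrum (66.8%), so this is no feature of the adrenal. Among adrenal counts of miR-431 whose read matched the hairpin exactly, 99.97% to 100% had the 5′ end of RefSeq.

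Reads of 4 Dlk1-Dio3 miRNAs with a G in place of an A differed in frequency between adrenal and cerebrum. They were picked after the values were seen and are given without a test. An adenosine that is deaminated to inosine is read as G, and members of the miR-376 and miR-379 families are known substrates of this editing. Positions are counted from 1 at the 5′ end of the RefSeq sequence. For miR-376c-3p, A6G was found in 2.55% of the covering adrenal counts, from 1.42% to 4.25% per library, and in a median of 43.5% of cerebrum counts, from 38.2% to 48.6%. For miR-377-3p, A13G was found in 1.59% (0% to 3.73%) against a median of 23.6% (17% to 28.9%). miR-411-5p is the deepest of them, with 628066 covering counts over the adrenal libraries, and its A5G was at 0.952% ± 0.130 (0.741% to 1.16%) against a median of 21.5% (11.6% to 23.4%). In the 4 ovary libraries the same change was at 2.54% ± 0.771. For miR-379-5p, A5G was at 0.0667% (0% to 0.321%) against a median of 6.62% (4.31% to 8.11%). In each of the 4 the adrenal and cerebrum libraries did not overlap. The sequences, with the seed in capitals, place the A5G and A6G changes within the seed and A13G outside it.
miR-376c-3p: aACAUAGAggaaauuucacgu
miR-411-5p: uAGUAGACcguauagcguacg
miR-379-5p: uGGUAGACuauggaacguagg

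**Figure D5:**
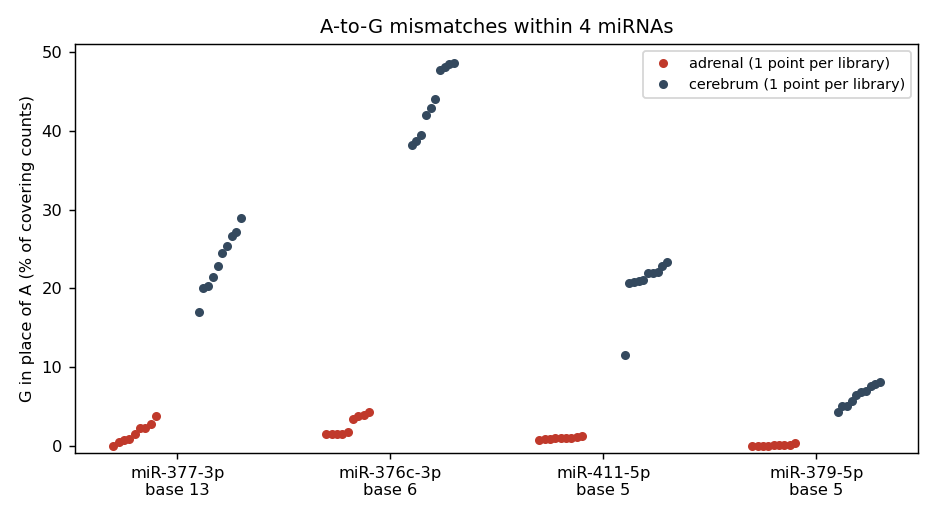
Share of covering counts with G in place of A, in percent (y axis), at 1 base of each of 4 miRNAs (x axis), a point per library in order of value for adrenal (red, n = 9) and cerebrum (blue, n = 10). No adrenal library exceeded 4.25%, and the cerebrum libraries lay between 4.31% and 48.6%, highest for miR-376c-3p.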

How the data were processed

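Small RNA was sequenced from 458 runs of 215 libraries, and 14 repeat lanes were set aside. The deposited values are counts per miRNA name, and counts per read sequence in the isomiR table. The authors trimmed adapters with cutadapt, discarded short reads and assigned names with miRDeep2 against miRBase rat, then mouse, human and worm entries. Predicted, precursor and composite names took 0.939%, 0.0644% and 1.13% of adrenal counts. Of the isomiR columns 50 were used and 408 were not.

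Runs were summed per library. The count model had 1 coefficient per tissue. It was fitted by the quasi-likelihood method of edgeR (version 4.0.16, run under R 4.3.3) after low names had been removed with filterByExpr and libraries scaled to their upper quartiles. P-values were adjusted by Benjamini-Hochberg with a threshold of 0.05, and DESeq2 1.42.0 served as an alternative. The script was tested on simulated data. The adrenal library of rat 8 and 9 other libraries were left out because their profiles were those of another organ. Members and lists were chosen with earlier results of these data known. Named miRNAs were the 3 markers, the 12 largest rises with at least 10 CPM, the 8 largest falls, the 5 most counted, the 10 names higher than every tissue with the largest smallest difference, the top sex differences, the study's names and up to 3 members of each list. Other values named for a list or cluster were chosen after their values were seen. A rat block was tried, and the labels give the same rat for tissues with the same number, with correlations of -0.0642 to 0.0879 between them. A share of isomiR counts needed at least 20 counts of the name in a library. Mismatch shares allowed 1 mismatch and left out the last 3 bases of a read. Each rat is 1 sample per tissue. RefSeq sequences are of build GRCr8.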

Additional observations from a re-analysis of the deposited data

Results flagged for a closer look

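Among 37 miRNAs named for the adrenal, the 9 libraries were searched for 1 library that stood apart from the rest by Dixon's criterion, which chance meets in about 1 in 20 groups. It was met 3 times. miR-1193-3p was at 193 CPM in the adrenal of rat 11, against a median of 86.0 CPM over the 9 libraries. miR-145-3p was at 99.6 CPM in the same library, against a median of 62.9 CPM. miR-150-5p was at 444 CPM in the adrenal of rat 2, against a median of 307 CPM.

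The difference between sexes was itself different in the adrenal and in the 18 other tissues with both sexes for 6 names (edgeR interaction term, 1225 names tested, 182 libraries). The log2 difference of females minus males in the adrenal, less that in the other tissues, was -2.61 for miR-504, -2.68 for miR-3585-5p, -3.02 for miR-201-5p, -3.32 for miR-3585-3p, -3.54 for miR-547-3p and -3.60 for miR-547-5p. The adjusted p lay between 1.86e-05 and 0.0305. The miR-547 names rest on 1 and 2 counts in the females together.

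The library labelled duodenum of rat 11, which entered no comparison, held the adrenal miRNAs at adrenal levels. miR-431 was at 1250 CPM, miR-351-5p at 13500 CPM and miR-494-3p at 35.8 CPM, each within the range of the 9 adrenal libraries.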

How the results depend on the processing

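Each alternative changed 1 choice, except that the DESeq2 test also used its own size factors and the adrenal fitted alone had its own filtered set of 539 names. The count of higher names (280) stayed within 1.5 times under each of them. The number of lower names, 246, was 149 with TMM scaling and 111 with the first flow cell alone. Leaving out each adrenal library in turn gave 261 to 278 higher and 223 to 240 lower names. Names higher than every tissue, 28, were 15 with no scaling factors and 18 with the first flow cell alone. The count of names lower than every tissue, 0, became 1 with the other flow cells, 5 with plain names alone and 2 without whole blood, and 0 to 1 when an adrenal library was left out. Female-higher names, 0, were 1 with DESeq2 size factors, 3 with no scaling factors, 9 with no filter, 38 with all libraries under their labels, 4 with plain names, 4 with the DESeq2 test and 37 with the adrenal fitted alone, and 0 to 1 with a library left out. Male-higher names, 7, were 26 with no filter, 2 with the first flow cell, 17 with plain names and 13 with the DESeq2 test, and 4 to 7 with a library left out. The RefSeq share of miR-494-3p was 66.1% in the first flow cell against 62.6%. The cause of these shifts was not tested. Scaling with no factors was chosen after seeing the data.

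With the adrenal library of rat 8 kept, and with all libraries under their labels, these turned positive: miR-200b-3p (1.73 and 1.17), miR-200a-3p (1.00 and 0.52), miR-429 (0.70 and 0.26), miR-200a-5p (0.78 and 0.39), miR-200c-3p (1.45 and 0.96), miR-802-5p (2.13 and 1.13), miR-192-5p (1.43 and 0.59), miR-217-5p (5.28 and 4.17) and miR-216a-5p (5.86 and 4.80). miR-203a-3p turned to 0.24 with rat 8 kept. miR-451-5p turned to -0.0667 with all libraries, -0.0533 with plain names, -0.0292 with rat 8 kept and -0.59 with organs weighted equally. miR-199a-3p turned to 0.28 with TMM, 0.0914 with DESeq2 size factors, 0.14 with no scaling factors and 0.0900 with the DESeq2 test. miR-199a-5p and miR-214-3p both turned to -0.11 with organs weighted equally.

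The rat as replicate block gave 272 higher and 238 lower names, and 1293 of 1309 names were called alike. Among 62 named miRNAs 61 kept their call, and miR-201-5p lost it. Correlations between libraries of the same rat were small, at -0.0642 to 0.0879 against -0.0174 to 0.0173 for other rats. In most rats the value for the same rat was the higher one, and this difference was not tested. No paired analysis was possible for the sexes because each rat has 1 sex. Depth limits the names with few counts, and the calls of miR-547-3p and miR-547-5p rest on 1 and 2 female counts.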
